A study of Mus musculus with 2 samples.

Results

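The colony-stimulating factors are the cytokines that keep macrophages and granulocytes alive, dividing and differentiating. CSF1 (M-CSF) acts through the tyrosine kinase receptor CSF1R, on which macrophages and osteoclast precursors depend. GM-CSF binds a receptor made of a specific alpha chain and a beta chain that is shared with the receptors for IL-3 and IL-5. The mouse also has a close copy of that beta chain which serves IL-3 alone, and G-CSF signals through its own receptor, best known from neutrophils.

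Described here are 6 genes of this system in a mouse macrophage line: the ligand gene Csf1 and the receptor genes Csf1r, Csf2ra, Csf2rb, Csf2rb2 and Csf3r. They were taken by gene symbol from a deposited table of 55414 genes, and all 6 matched by symbol. The line is labelled RAW246.7, as the submitters spell it, with the cell type macrophage. Cells after 24 h of loading at 20% elongation strain (stretched) were compared with cells after 24 h of a loading described as normal (control). The control's strain is not put as a number, and no genotype, agent or culture detail is named for either group. Each group had 1 library of poly(A) RNA, so the spread between cultures is unknown and no test between groups was possible.

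The stretched library held 13391645 estimated counts and the control library 14769100. Sizes of difference were read for the 12772 genes whose counts in the libraries summed to 20 or more, called the genes tested. A gene is called higher or lower when its scaled counts differed by at least 2-fold and the 95% counting interval of the ratio excluded no difference. These intervals cover counting error only. Cd68, Lyz2 and Cd14, which mark macrophages, were among the abundant genes with 459, 2289 and 569 FPKM in stretched cells and 403, 1320 and 445 FPKM in control cells (fragments per kilobase, scaled to depth). Of 10 macrophage markers 8 had enough counts and none met the rule, while Mrc1 had 1 count in stretched and 4 in control cells and Mertk 0 and 3. Macrophage markers summed to 74001 counts in stretched and 58259 in control cells, and without Lyz2 the other 9 summed to 30228 and 29874. Fcgr1 (996 counts in stretched and 1440 in control, -0.41 on the log2 scale), Cx3cr1 (2487 and 3574, -0.40) and Tyrobp (1359 and 1604, -0.11) had values below 0. The tissue entry reads synovial membrane. Of 10 markers of synovial fibroblasts, 6 were at 0 in both libraries, among them Col1a2, Col3a1, Pdgfra and Thy1, and the 10 summed to 23 counts in stretched and 19 in control. The markers of other cell types were also low: dendritic cell markers summed to 35 counts in stretched and 75 in control, with Siglech lower (4 and 25), endothelial markers to 43 and 40, lymphocyte markers to 12 and 11, and mast cell and eosinophil markers to 3 and 0. Osteoclast markers summed to 2830 counts in stretched and 2525 in control, and of the 6 tested 1 was higher and 5 met neither side. The higher one was Atp6v0d2, a proton pump subunit of osteoclasts, with 186 counts in stretched and 16 in control. Acp5 had 151 and 85 (0.95, interval 0.56 to 1.36) and Nfatc1 had 2002 and 1741 (0.33, interval 0.23 to 0.42). Dcstamp, a gene of osteoclast fusion, had 464 and 654 (-0.37, interval -0.54 to -0.20) and was the only tested osteoclast marker below 0. The median log2 difference of the tested osteoclast markers was 0.29. The part of these markers in the results was not tested.

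Of the 6 genes, 1 was higher in stretched cells (Csf1), 1 was lower (Csf3r) and 4 met neither side. Over all genes tested, 3.12% were called higher and 1.94% lower, 5.06% in all. The median log2 difference of the 6 genes was 0.12, against -0.0014 over all genes tested. By the level per length, Csf1r stood far above the rest in both libraries, followed by Csf2ra, and Csf1 was the lowest of the 6.

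**Figure D1:**
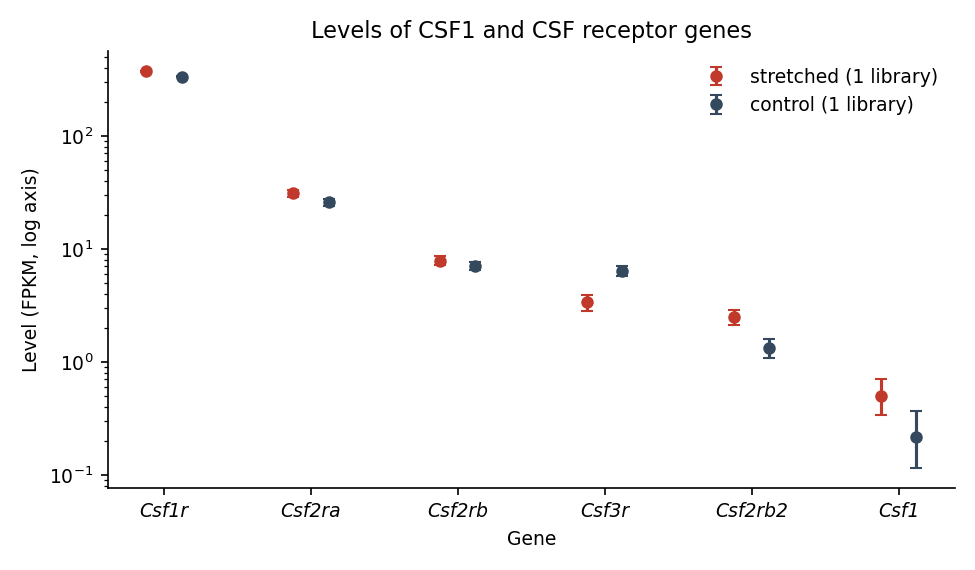
Level of each gene in FPKM (log axis) in the stretched (red, left) and control (dark, right) library, with bars for the exact Poisson 95% interval of the count behind it; n = 1 library per group. Csf1r lay at 373.8 FPKM in stretched and 333.5 in control, while Csf1 lay at 0.503 and 0.217.

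The order of levels was Csf1r, Csf2ra, Csf2rb, Csf3r, Csf2rb2 and Csf1 in both libraries. In stretched cells the counting interval of Csf3r (2.85 to 3.95 FPKM) overlapped that of its neighbour Csf2rb2 (2.14 to 2.90 FPKM). In control cells Csf3r (5.73 to 7.09 FPKM) overlapped instead with Csf2rb (6.54 to 7.73 FPKM). The intervals of the other neighbours did not overlap within a library.

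Csf1 encodes the ligand CSF1, which macrophages and stromal cells can secrete. The gene (ENSMUSG00000014599, minus strand of chromosome 3 from 107648364 to 107667785 in GRCm39) had 31 counts in stretched cells and 13 in control cells, or 0.503 and 0.217 FPKM. It was 2.55-fold higher in stretched cells, with a log2 difference of 1.35 (95% counting interval 0.40 to 2.44). At so few counts the rule was met often: of the 2227 genes with summed counts of at least 20 and under 100, 9.7% were called higher and 8.17% lower. The FPKM values themselves differed 2.32-fold (log2 1.21). With 0.1 added to each FPKM before the log2 the difference was 0.93 and with 1 added 0.30, both under 2-fold, and these additions are large beside FPKM values of 0.503 and 0.217. The authors' deposited table lists Csf1 as up with a log2 fold change of 1.37 and an adjusted p-value of 0.219.

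The main coding transcript of Csf1 held all 31 counts in stretched cells and 10 of 13 in control cells (76.9%, Wilson interval 49.7% to 91.8%). The remaining 3 control counts were assigned to a transcript with a retained intron, which had 0 counts in stretched cells. The other 5 annotated transcripts were at 0 in both libraries.

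Of the other ligands of these receptors, Csf3, encoding G-CSF, was the only one with any count. It had 10 counts in stretched cells and 2 in control cells, which is under the filter of 20, and a log2 difference of 2.20 with a counting interval of 0.22 to 5.68. Csf2 (GM-CSF), Il3, Il5 and Il34, the second ligand of CSF1R, had 0 counts in both libraries. A count of 0 allows up to 3 counts per library. The alpha chains of the receptors for IL-3 and IL-5, Il3ra and Il5ra, were also at 0 in both.

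Csf1r encodes the CSF1 receptor and was the most abundant of the 6 genes. The gene (ENSMUSG00000024621, plus strand of chromosome 18 from 61233670 to 61265221 in GRCm39) had 24304 counts in stretched cells and 25216 in control cells. At 373.8 FPKM in stretched cells it ranked 144th by level among the 20772 genes with a value above 0, and at 333.5 FPKM in control cells it ranked 154th among 20384. Its log2 difference of 0.07 had a counting interval of 0.05 to 0.10, the narrowest of the 6. With DESeq2 size factors the value was 0.03 and on the FPKM scale with 1 added 0.16. Of the 407 genes with summed counts of at least 10000, 1.23% were called higher and 0.246% lower. In both libraries the level of the receptor gene was far above that of the ligand gene, with a ratio of Csf1r to Csf1 FPKM of 744 in stretched cells and 1540 in control cells. The control ratio rests on 13 counts of Csf1. Csf1r overlaps Hmgxb3 on the opposite strand, which had 885 counts in stretched and 803 in control cells.

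Within Csf1r, the main coding transcript Csf1r-202 held 95.4% of the counts in stretched cells (Wilson 95% interval 95.1% to 95.7%) and 99.5% in control cells (99.5% to 99.6%). The following transcripts were singled out after their values were seen. Csf1r-201 has the same coding sequence of 2931 bases, begins 280 bases further upstream and ends 1015 bases earlier. It had 746 counts in stretched cells and 18 in control cells, a share of 3.07% (2.86% to 3.29%) in stretched and 0.0714% (0.0452% to 0.113%) in control. Csf1r-204, which retains an intron, had 294 counts in stretched cells and 55 in control cells. Csf1r-206, a short noncoding transcript, had 76 counts in stretched cells and 32 in control cells. Csf1r-203, a coding transcript, went the other way with 1 count in stretched cells and 8 in control cells, and Csf1r-205 had 1 count in each. Csf1r-202 itself had a log2 difference of 0.01 (-0.01 to 0.04). The largest change in the share of any Csf1r transcript was 4.15 percentage points. Over 8672 genes with several transcripts and at least 100 counts in each library, the median of this value was 4.08. In 50.2% of them it was smaller than in Csf1r. The shares are the authors' division of coverage between overlapping transcripts, and only 184 of the 3870 bases of Csf1r-201 are not in Csf1r-202.

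Csf2ra encodes the GM-CSF-specific alpha chain. The gene (ENSMUSG00000059326, minus strand of chromosome 19 from 61212395 to 61216867 in GRCm39) had 786 counts in stretched cells and 759 in control cells, or 31.2 and 26.0 FPKM. Its log2 difference was 0.18 (0.03 to 0.32), which met neither side of the rule. The composition of these counts differed between the libraries. Coding transcripts took 556 counts in stretched cells and 641 in control cells, and over these alone the log2 difference was -0.08. Transcripts with a retained intron took 213 counts in stretched cells and 103 in control cells. Their share of the gene was 27.1% (24.1% to 30.3%) in stretched cells and 13.6% (11.3% to 16.2%) in control cells.

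The largest of these retained-intron transcripts, Csf2ra-202, had 155 counts in stretched cells and 81 in control cells, a log2 difference of 1.06 (0.67 to 1.47). The main coding transcript Csf2ra-201 had 542 counts in stretched cells and 609 in control cells (-0.04, interval -0.21 to 0.13). Over all transcripts of the table the retained-intron share was 4.17% in stretched cells and 4.19% in control cells, so the shift of Csf2ra was not shared by the libraries as a whole. Differences in that share, stretched minus control, were ranked with their sign over 5985 genes with a retained-intron transcript and at least 100 counts in each library. Of these, 97.3% had a value below the 13.5 percentage points of Csf2ra. Genes whose share fell by any amount count as below, and 49.9% of the genes had a higher share in stretched cells. For Csf1r the difference was 0.992 percentage points, above 78.6% of these genes, and for Csf2rb it was 1.36, above 81.6%. By the largest change in the share of any of its transcripts, in either direction, Csf2ra had 11.3 percentage points. Of the 8672 genes described for Csf1r, 71.3% had a smaller value. These ranks are within these libraries and are no test.

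**Figure D2:**
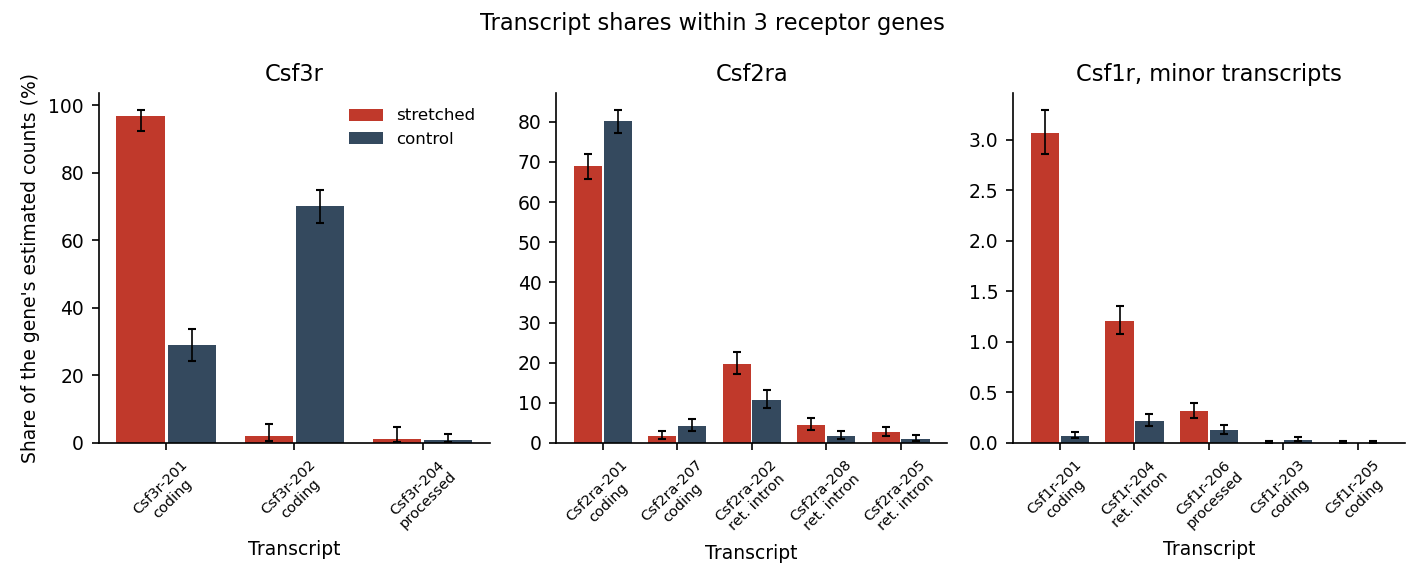
Share of a gene's estimated counts (%) by transcript for Csf3r, Csf2ra and the minor transcripts of Csf1r, with stretched in red on the left of each pair and control in dark on the right; bars are Wilson 95% intervals, n = 1 library per group, and the vertical scales differ. Csf3r-202 took 1.97% of Csf3r in stretched and 70.2% in control, and the retained-intron transcript Csf2ra-202 took 19.7% and 10.7% of Csf2ra.

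The common beta chain gene Csf2rb and its copy Csf2rb2 lie next to each other on chromosome 15 on opposite strands, and their sequences decide how well their counts can be told apart. Their coding sequences, 2688 bases in Csf2rb and 2634 in Csf2rb2, matched at 2503 of 2628 aligned bases (95.2%). Below are the 120-base coding stretches in which they are least alike, with the bases that differ in capitals (22 of 120). Sequences are from the GENCODE M21 main transcripts of each gene, which are annotated on GRCm38, and positions are counted from the first coding base.
Csf2rb, coding bases 309 to 428: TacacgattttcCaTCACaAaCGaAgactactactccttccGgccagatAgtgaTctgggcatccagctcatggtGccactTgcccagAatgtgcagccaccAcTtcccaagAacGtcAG
Csf2rb2, coding bases 312 to 431: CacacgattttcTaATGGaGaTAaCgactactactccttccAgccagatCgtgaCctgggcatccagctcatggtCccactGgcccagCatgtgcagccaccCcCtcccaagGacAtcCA

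At the other extreme, coding bases 2083 to 2202 were the same in both genes, and a fragment from this stretch cannot be assigned to one of them by its sequence.
Csf2rb and Csf2rb2, coding bases 2083 to 2202: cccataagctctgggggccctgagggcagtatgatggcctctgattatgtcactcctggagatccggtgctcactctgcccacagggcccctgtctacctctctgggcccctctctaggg
Of all 100-base windows of the Csf2rb transcript, 6.96% occur unchanged in that of Csf2rb2, and 7.20% of those of Csf2rb2 occur in that of Csf2rb. For 50-base windows the shares were 18.4% of Csf2rb and 19.0% of Csf2rb2, and for 150-base windows 3.47% of Csf2rb and 3.59% of Csf2rb2. The counts of both genes are uncertain to an extent that depends on the read length, and no source used here gives that length or says how fragments that match both were treated.

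Csf2rb (ENSMUSG00000071713, plus strand from 78209952 to 78238047 in GRCm39) encodes the chain that carries the signal of GM-CSF, IL-3 and IL-5. It had 538 counts in stretched cells and 564 in control cells, or 7.89 and 7.12 FPKM, with a log2 difference of 0.06 (-0.12 to 0.23). The interval includes no difference and its upper end is far below 2-fold. Nearly all of its counts, 523 in stretched and 556 in control cells, were assigned to Csf2rb-206.

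Csf2rb2 (ENSMUSG00000071714, minus strand from 78166707 to 78189921 in GRCm39) encodes the IL-3-specific copy. It had 172 counts in stretched cells and 102 in control cells, or 2.49 and 1.32 FPKM. Its log2 difference of 0.88 (0.52 to 1.25) was 1.84-fold and did not reach the 2-fold limit, although the interval excluded no difference. Among all genes tested, 4.28% had a higher log2 difference, ranked with its sign, so genes lower by more are not counted. Within the pair, Csf2rb2 made up 24.2% of the counts in stretched cells (172 of 710, Wilson interval 21.2% to 27.5%) and 15.3% in control cells (102 of 666, 12.8% to 18.3%). This share does not depend on how the libraries were scaled. The counts of the pair together differed by 0.22 on the log2 scale (0.06 to 0.37). The authors' deposited table gives Csf2rb2 a log2 fold change of 0.88 and lists it as neither up nor down.

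Set per length, the alpha chain was more abundant than the beta chains. The ratio of Csf2ra FPKM to the summed FPKM of Csf2rb and Csf2rb2 was 3.01 in stretched cells and 3.08 in control cells, and these ratios include the retained-intron transcripts of Csf2ra.

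Csf3r encodes the G-CSF receptor and was the lower gene of the 6. The gene (ENSMUSG00000028859, plus strand of chromosome 4 from 125918343 to 125938233 in GRCm39) had 152 counts in stretched cells and 346 in control cells, or 3.37 and 6.38 FPKM. It was 2.08-fold lower in stretched cells, with a log2 difference of -1.06 (-1.35 to -0.78). Of the 4495 genes with summed counts of at least 100 and under 1000, 2.96% were called higher and 1.11% lower. The value lies close to the limit: it was -1.04 with scaling by library totals and -1.10 with DESeq2 size factors, but on the FPKM scale it was -0.92 with nothing added, -0.90 with 0.1 added and -0.76 with 1 added, all under 2-fold. The authors' deposited table lists it as down, with a log2 fold change of -1.06 and an adjusted p-value of 0.00181; a p-value from 1 library per group does not include measured variation between cultures. In RNA from whole cultures, fewer cells that express a gene and less RNA per cell cannot be told apart. Markers of granulocytes, the cells best known for this receptor, were at or near 0: of 9 genes, 7 had no count in either library, S100a8, S100a9, Mpo and Ly6g among them, and the 9 summed to 3 counts in stretched cells (2 of Camp and 1 of Elane) and 0 in control cells.

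**Figure D3:**
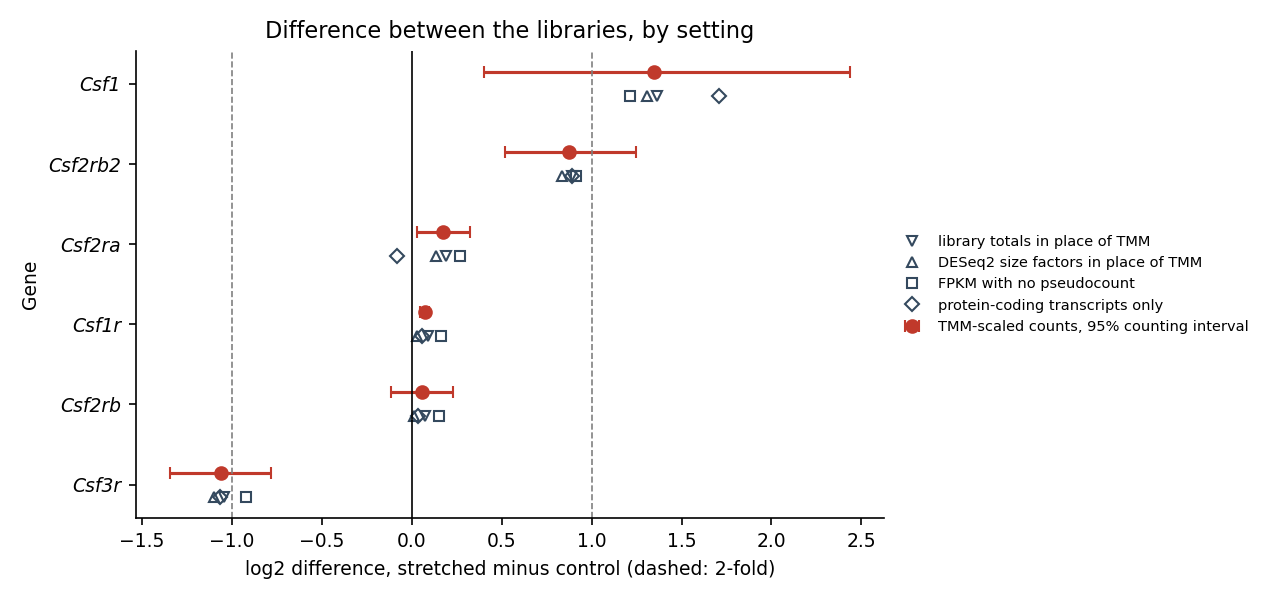
log2 difference, stretched minus control, of the 6 genes: red points are TMM-scaled counts with their 95% counting interval, and open symbols are the same difference under 4 other settings; dashed lines mark 2-fold and n = 1 library per group. Csf1 lies past 2-fold at 1.35 by counts and at 1.21 by FPKM with nothing added, Csf3r lies past it at -1.06 by counts and within it at -0.92 by FPKM, and Csf2rb2 lies at 0.88.

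By the authors' division of coverage between transcripts, the difference in Csf3r lay in 1 of its coding transcripts. The intervals given here cover counting error and leave out error in that division, which was not checked against reads. Csf3r-202 had 3 counts in stretched cells and 243 in control cells, a log2 difference of -6.00 (-8.50 to -4.65). Csf3r-201 went the other way, with 147 counts in stretched cells and 100 in control cells and a log2 difference of 0.68 (0.31 to 1.06). As a share of the gene, Csf3r-202 took 1.97% in stretched cells (0.674% to 5.64%) and 70.2% in control cells (65.2% to 74.8%). Csf3r-201 took 96.7% (92.5% to 98.6%) in stretched and 28.9% (24.4% to 33.9%) in control. With counts rebuilt without rounding up, the share of Csf3r-202 was 1.58% in stretched and 70.4% in control.

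The shift of 68.3 percentage points was larger than the largest transcript shift in 98.8% of 8672 genes with several transcripts and at least 100 counts in each library, where the median was 4.08. Among the 5592 of these with fewer than 1000 counts in 1 of the libraries, 98.5% had a smaller shift. Shifts were ranked here by their size in either direction, unlike the retained-intron shares above. This again ranks genes within the libraries and is no test.

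The Csf3r transcripts differ at their start and encode the same protein. In GENCODE M21, Csf3r-202 has 17 exons and Csf3r-201 has 15, and their coding sequences of 2511 bases are the same. Csf3r-202 begins 2742 bases upstream of Csf3r-201, within the window that RefSeq's gene start places around the Csf3r promoter. A total of 346 of its 3481 bases are not in Csf3r-201, and 25 bases of Csf3r-201 are not in Csf3r-202, so the division of counts between them rests on coverage of those 5′ bases. Csf3r-204, a short noncoding transcript that begins 67 bases after the RefSeq start and so also upstream of Csf3r-201, had 2 counts in stretched cells and 3 in control cells.

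The 141 bases just before the start of Csf3r-202 are shown because that transcript had 3 estimated counts in stretched cells and 243 in control. They are from the RefSeq promoter table and lie at chr4:126024409-126024549 on the plus strand of GRCm38.p6, a build that differs from the GRCm39 coordinates given for the genes.
Csf3r, upstream of Csf3r-202: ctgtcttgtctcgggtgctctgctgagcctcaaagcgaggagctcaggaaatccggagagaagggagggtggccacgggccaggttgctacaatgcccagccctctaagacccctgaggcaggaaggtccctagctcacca

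Promoter windows, 250 bases before to 50 after the RefSeq gene start, were read for 4 of the genes: Csf1, Csf2ra, Csf2rb2 and Csf3r. Csf1r was left out of this search, so its window was not examined. PU.1 is a transcription factor that macrophage genes depend on, and its core letters GAGGAAG, searched on both strands, occurred once in the window of Csf3r, at window base 165 and so inside the first exon of Csf3r-202. They occurred 2 times in the window of Csf2ra, where the matches overlap by 1 base, 2 times in that of Csf2rb2 and not in that of Csf1. Of all 32851 windows in the table, 13.6% hold at least 1 match. C/EBP letters (TTNNGNAAT, both strands, in 11.5% of windows) had no match in the 4 windows. Matches are letters in a window and were not measured as binding.

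**Figure D4:**
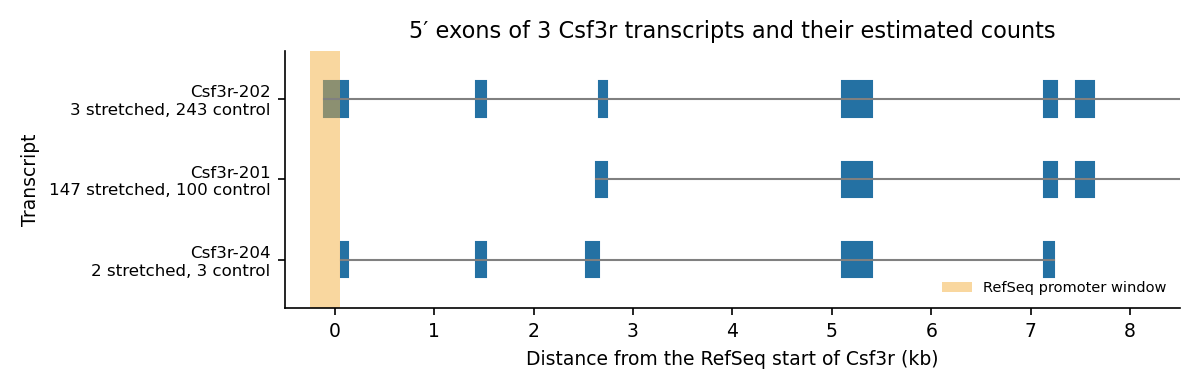
Exons (blue) at the 5′ end of 3 Csf3r transcripts by distance from the RefSeq gene start in kb, with each transcript's estimated counts in the stretched and control library beside its name; the orange band is the RefSeq promoter window. Csf3r-202 begins inside the band and had 3 counts in stretched and 243 in control, and Csf3r-201 begins downstream of it and had 147 and 100.

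Genes that act with these receptors were read from 5 lists. Of their 73 genes, 59 had enough counts, of which 3 were higher in stretched cells (5.08%, against 3.12% of all genes tested) and 1 was lower (1.69%, against 1.94%). Their median log2 difference was 0.06. Both shares rest on few genes and were not tested against the background, which varied with the counts of the genes. In the range of counts of Pim1 and Fos, from 1000 to under 10000 summed counts, 0.78% of 5643 genes were called higher and 0.266% lower.

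Of 20 genes of CSF1R and DAP12 signalling, which carry the signal from the receptor tail to the kinase cascades, 19 had enough counts, 1 was higher, 0 were lower and the median was 0.03. The higher gene was Socs1, a feedback inhibitor of cytokine receptors, on 22 counts in stretched cells and 8 in control cells (2.89-fold, log2 interval 0.36 to 2.96), and it was under 2-fold on the FPKM scale with 1 added. Among the most abundant members were Ptpn6, the phosphatase SHP-1 that dampens CSF1R signalling, with 4390 counts in stretched and 6795 in control cells (-0.50), and Cbl, the ubiquitin ligase that sends the activated receptor for degradation, with 4710 counts in stretched and 5035 in control cells (0.03). Neither met the rule.

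Of 21 genes of beta common and G-CSF receptor signalling, 20 had enough counts, 3 were higher, 0 were lower and the median was 0.05. Osm, encoding oncostatin M, a cytokine induced through STAT5, had 175 counts in stretched cells and 80 in control cells (2.38-fold, log2 1.25, interval 0.87 to 1.66). Pim1, a survival kinase gene induced through STAT5, had 710 counts in stretched cells and 387 in control cells and lay at the limit of 2-fold. It was under 2-fold with DESeq2 size factors, with a prior of 5 and on the FPKM scale with 1 added. Socs1 is the third and is on the list before as well. The most abundant were Mcl1, a survival gene of the BCL2 family (6596 counts in stretched and 9730 in control, -0.44), the adaptor gene Ywhaz (5171 and 6267, -0.15) and the kinase gene Lyn (2738 and 2945, 0.02). The STAT5 genes themselves met neither side, with log2 differences of 0.40 for Stat5a and -0.03 for Stat5b, which like the remaining values are named outside the rule for choosing genes.

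Of 17 factors known to control the transcription of Csf1r, 14 had enough counts, 0 were higher, 1 was lower and the median was 0.05. The lower gene was Fos, an AP-1 subunit, with 256 counts in stretched cells and 770 in control cells (log2 -1.46, interval -1.67 to -1.26). Jun, another AP-1 subunit, had 959 counts in stretched cells and 619 in control cells (0.76, interval 0.61 to 0.91), which met neither side at 2-fold and was higher at 1.5-fold; it was named after its values were seen. Among the most abundant were Ctnnb1, encoding beta-catenin (7525 counts in stretched and 6292 in control, 0.38), and Ets2 (3249 and 2747, 0.37). Spi1, which encodes PU.1, had 2599 counts in stretched cells and 3090 in control cells (-0.12).

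Of 7 genes that shed CSF1 and CSF1R from the cell surface or cleave what remains, 6 had enough counts and none met the rule, with a median of 0.09. Adam17, the main sheddase of both proteins, had 4948 counts in stretched and 6205 in control cells (-0.20), and Adam10 had 2832 and 2928 (0.08). Of the 9 further ligand and receptor genes, 7 were at 0 in both libraries and 1 had enough counts, Sdc1, a proteoglycan that can bind growth factors, with 272 counts in stretched cells and 202 in control cells (0.55, interval 0.29 to 0.82).

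**Figure D5:**
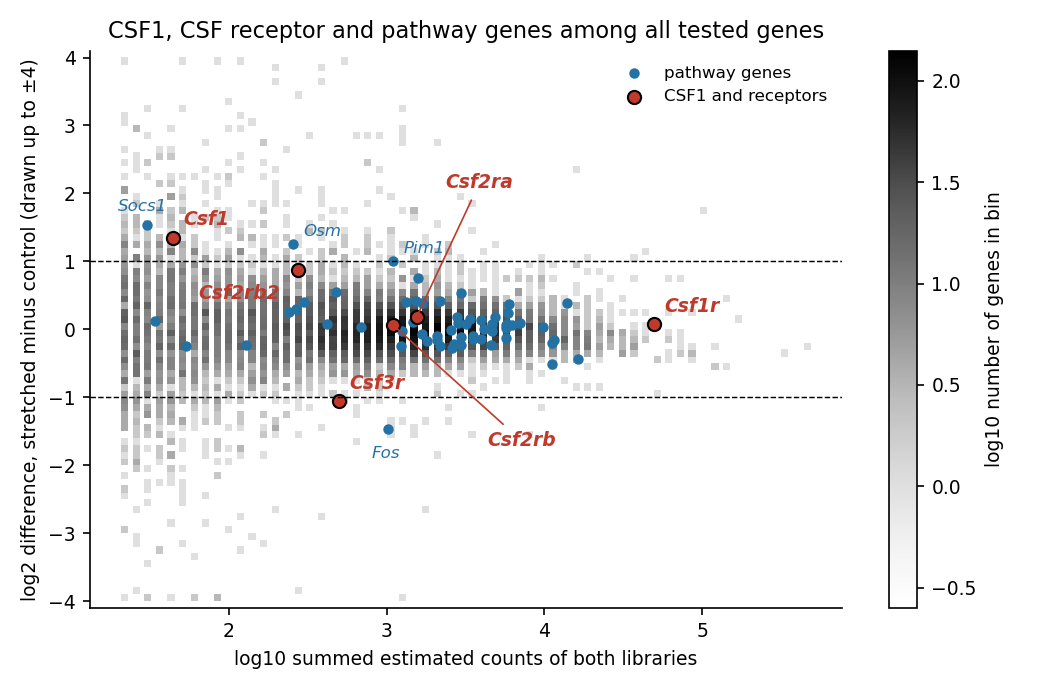
log2 difference, stretched minus control, against the log10 of the summed estimated counts for 12772 genes (grey squares, darker for more genes, drawn up to 4 either way), the 59 pathway genes with enough counts (blue) and the 6 genes described (red); dashed lines mark 2-fold and n = 1 library per group. Csf1 at 1.35 lies where low counts spread all genes widely, Csf1r at 0.07 lies among the most abundant genes, and Fos and Csf3r lie below the lower line.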

How the data were processed

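Poly(A) RNA of 2 libraries, 1 per group, was sequenced after second-strand marking with dUTP, per the labels' protocols. The submitters' processing notes name StringTie and GRCm39; no source used here names the aligner, the versions or the strand setting. The deposited tables give estimated counts and FPKM per gene and for 142438 transcripts per the file headers, and the authors' further table gives a log2 fold change, p-value and adjusted p-value. The deposited count of total reads for the stretched library was 35454910. For 99.98% of transcripts with a length in each library, the count lay within 0.05 of the range from FPKM times length times 1 constant to that product plus 1, so the deposited estimated counts are coverage estimates rounded up. Control columns were matched to the sample titled NC, tensile columns to the loaded sample. Scaling used TMM factors (edgeR 4.0.16, R 4.3.3) of 1.01 for stretched and 0.995 for control. The log2 difference has a prior of 0.5 counts, and its interval is exact conditional binomial; shares have Wilson intervals (SciPy 1.17.1). PCR copies are not independent molecules, so intervals and the floor of 3 counts cover counting error only. The size rule and its interval were tested on simulated Poisson counts per gene. These held no variation between cultures and no division of coverage between transcripts, so the test does not cover either. The genes and lists were chosen with earlier results of these data known. Named were all 6 genes; in each list the genes meeting the size rule and the 3 most abundant, some of which are not reported here; and transcripts with at least 10% of a gene's counts and 5 counts. Other scalings, filters, priors, folds, the FPKM scale and gene models were tried. With 2 libraries a pattern is 1 ratio, so no gene is named as most like another. All list genes matched by symbol. Coding sequences were aligned with Biopython 1.88. Deposited tables that repeat rows were not used here.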

Additional observations from a re-analysis of the deposited data

How the results depend on the processing

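Leaving out a replicate was not possible with 1 library per group. No paired analysis was possible because the groups share fewer than 2 replicate numbers. On the FPKM scale, 0 of the 6 genes were higher and 0 lower with a pseudocount of 1, and likewise 0 and 0 with a pseudocount of 0.1, since Csf1 and Csf3r then differed by under 2-fold. With no pseudocount, a setting chosen after seeing the data, 1 was higher (Csf1) and 0 lower, and Csf3r was at -0.92. With a limit of 1.5-fold, 2 of the 6 were higher, Csf2rb2 being added. The share of all genes tested that met this looser limit is not given here, so the count has no background beside it. Pathway genes called higher numbered 3 in the main setting, 5 with no minimum count (Csf3 and Src were added) and 1 with FPKM and a pseudocount of 1 (Osm). Library totals, DESeq2 size factors, a minimum of 10 counts and a prior of 5 left 1 of the 6 genes higher (Csf1) and 1 lower (Csf3r). Every setting kept Csf1 above 0 (0.30 to 1.71) and Csf3r below 0 (-1.10 to -0.76); Csf2ra was below 0 over coding transcripts alone (-0.08), which leaves out its retained-intron counts. Depth limits Csf1 most, with 31 counts in stretched and 13 in control cells.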

Other observations

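The 6 genes have 37 annotated transcripts, of which 25 had counts in at least 1 library and 12 were at 0 in both. All 6 transcripts of Csf1r and all 8 of Csf2ra had counts in both libraries, whereas 5 of the 7 transcripts of Csf1 and 4 of the 8 of Csf2rb had none. Because the deposited counts are coverage estimates rounded up, a count of 1 can stand for much less and does not show that a transcript was expressed. Csf1r-205, with 1 count in each library, had 0.0196 FPKM in stretched and 0.00493 FPKM in control. Csf2ra-207, a second coding transcript that has the same 1164-base coding sequence as Csf2ra-201 and begins downstream of it, had 14 counts in stretched cells and 32 in control cells (log2 -1.04, interval -2.09 to -0.12), opposite in sign to the retained-intron transcripts Csf2ra-208 (36 and 14, 1.46) and Csf2ra-205 (21 and 7, 1.65). The Csf2ra transcripts in the sentence before were named after their values were seen.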
